A study of Mus musculus with 48 samples.

Results

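The livers described here came from 12 fasted male mice on control diet, 6 *p110α*hep-/- mice that lacked the insulin-activated PI3K catalytic subunit p110α in hepatocytes and 6 *p110α*hep+/+ littermates that kept it. They were chosen by the genotype, diet and nutritional state in the sample titles, and they are 12 of the 48 mice of the series. The *p110α*hep-/- mice carried the homozygous *p110α* floxed allele together with a hemizygous albumin-Cre transgene, so that recombination was driven by a hepatocyte promoter. Whether the other cells of the liver kept the gene was not tested here. The *p110α*hep+/+ controls were floxed mice without Cre, so an effect of Cre itself cannot be told apart from the loss of p110α. All mice were on a C57BL/6J background, began the control diet (CTRL, D12450J) at 12 weeks of age, ate it for 12 weeks, were fasted for 24 h and were killed at ZT16. Each p from fewer mice or from another test is given as such. Every other p and every SE came from a fit to all 48 arrays, with 3 further pairs of groups of the same size. In these, mice of both genotypes ate CTRL and were fed, or ate a high-fat diet (HFD, 60% of calories from fat) and were fasted for 24 h or fed. The fed CTRL and fasted HFD mice are compared with these mice at the end, and the fed HFD mice enter the fit alone. Whole-liver RNA of each mouse was hybridized to 1 single-colour Agilent array, and each level below is a log2 signal.

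Insulin binds its receptor and, through the IRS adaptor proteins, recruits class I PI3K, whose catalytic subunit p110α makes the lipid messenger that activates AKT. Active AKT keeps the transcription factor FOXO1 out of the nucleus and favours glycolysis and lipid synthesis. During fasting insulin is low, FOXO1 and glucagon signalling drive glucose production, and fatty acids released from adipose tissue activate PPARα, which turns on fatty acid oxidation and ketone body genes. The comparison asked which hepatic genes still differed with p110α when the mice were fasted.

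Over 20486 genes measured, 662 passed both thresholds between the genotypes, a fold above 1.5 and an adjusted p no higher than 0.05, which is 3.23% of the genes. Of these, 272 were higher in *p110α*hep-/- livers (1.33% of the genes) and 390 were lower (1.9%). With no fold threshold, 2563 genes were higher (12.5%) and 2528 lower (12.3%), with a median fold change of 1.22 over both directions. Below, a gene rose, fell or was called only where it met both conditions, and all adjusted p values of genes are those of limma. The median log2 difference over all genes was 0.01. The 6 and 6 mice did not overlap at all for 2101 genes (10.3%), among them 429 of the 662 called genes. Counts of called members in the gene lists below are to be read against 1.33% higher and 1.9% lower. The lists were not tested as sets, and several of them share genes. They were chosen with earlier results of these data known, so their shares of called members are no independent evidence. A change over 2-fold was called for 204 genes, 75 higher and 129 lower, and a change over 4-fold for 24 genes, 5 higher and 19 lower.

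**Figure D1:**
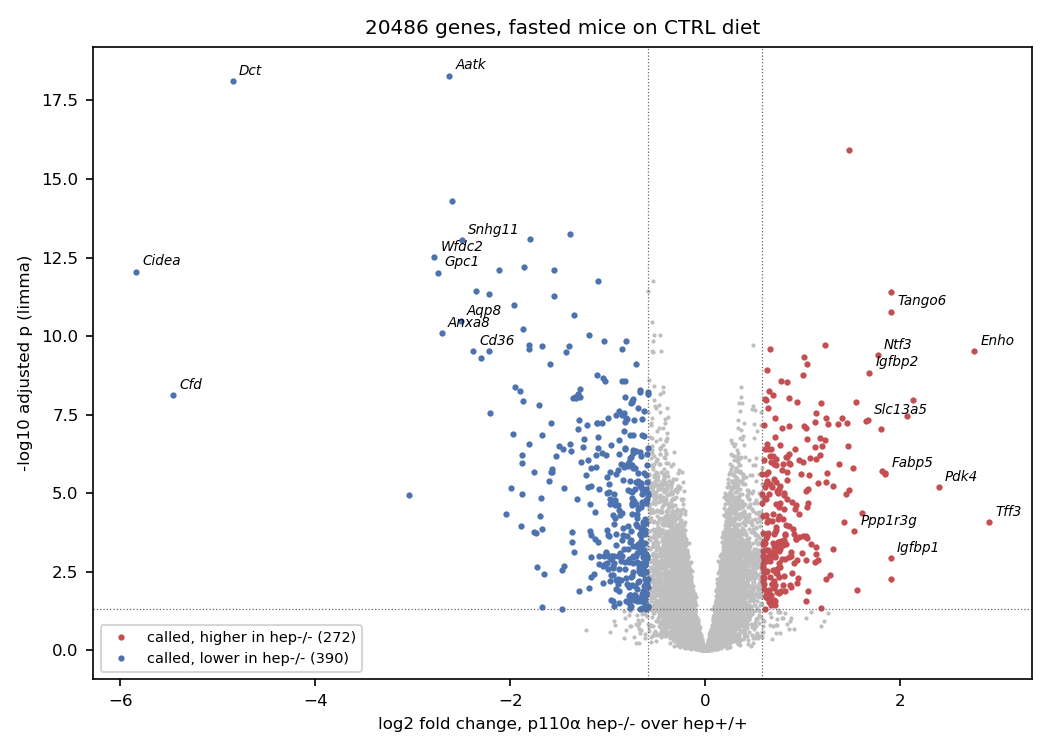
Each point is a gene; the horizontal axis is the log2 difference between genotypes, positive where *p110α*hep-/- livers were higher, and the vertical axis is the negative log10 of the adjusted p. Red and blue points are the 272 genes called higher and the 390 called lower, grey points are the other genes, and dotted lines are the thresholds. The points of *Cidea* and *Cfd*, far to the left at -5.84 and -5.46, rest on signals near background in *p110α*hep-/- mice.

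The share of spots well above background was 55.4% ± 0.88 (SD, n = 6) in *p110α*hep-/- and 55.4% ± 1.53 (SD, n = 6) in *p110α*hep+/+ mice (two-sided exact permutation test, p = 0.922, adjusted over 3 measures 0.948). Each array correlated better on average with its own group (mean r 0.994 to 0.996 across genes) than with the other genotype (0.990 to 0.993). The *Pik3ca* probe (chr3:32364747-32364806, mm9), for the gene that encodes p110α, read 13.27, 13.45 and 13.55 in *p110α*hep-/- mice and 13.09, 13.36 and 13.44 in *p110α*hep+/+ mice as the lowest, median and highest of 6. The difference of 0.08 ± 0.08 (SE, adjusted p = 0.523) is no check of the deletion, because this probe was not shown to lie in the deleted exons.

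The *p110α*hep-/- mice with replicate numbers 5 and 6 stood apart from the other 4. They correlated with each other at r = 0.996 across genes, and with mice 1 to 4 at 0.992 to 0.995. Their arrays were on different slides and in different washing batches, and had the lowest weights of the 12 arrays (0.75 and 0.64, against 0.87 to 1.48). Both mice lay more than 1.5-fold above all 4 others for 62 genes and more than 1.5-fold below them for 63 genes. The following genes were chosen after their values were seen. *Fabp4*, a fatty acid binding protein known from adipocytes and macrophages, read 12.91 and 12.92 in mice 5 and 6 and 9.99 to 10.39 in the other 4, with the controls at 9.94 to 10.62. *Apoa4*, an apolipoprotein that fasting raises, read 16.88 and 16.91 against 13.43 to 14.06. *Gdf15*, a stress-induced hormone, was low in them (9.51 and 9.36, against 10.76 to 11.36), and so was *Gadd45g*, a stress-response gene (13.61 and 13.32, against 15.08 to 15.31), with the controls at 11.19 to 11.96 and 12.58 to 14.28. Without these 2 mice 772 genes were called, 337 higher and 435 lower, and these included 606 of the 662. Each gene below whose call ends without them is given with both values.

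Genes counted as FOXO1 targets, many of which insulin represses, changed in both directions. Of 26 FOXO1 target genes measured, 8 rose and 2 fell, which is 38.5% called, against 3.23% over all genes, and their median log2 difference was 0.11, against 0.01. The list holds *Igfbp1* and *Enho*, whose rise with this deletion the study reported in fed mice. This share is therefore no evidence of its own. *Igfbp1* (probe at chr11:7102442-7102501, mm9), which encodes a secreted binder of insulin-like growth factors that insulin silences within the liver cell, read 16.09, 16.43 and 16.86 in *p110α*hep-/- and 14.30, 14.62 and 14.86 in *p110α*hep+/+ mice. Every *p110α*hep-/- mouse was above every control, and the rise was 1.91 ± 0.44 (SE, adjusted p = 0.00113), or 3.75-fold. *Enho*, the gene of the peptide hormone adropin (chr4:41585245-41585304), showed the same separation with a larger difference. It read 13.05, 13.34 and 13.94 against 9.92, 10.64 and 11.27, a rise of 2.76 ± 0.27 (adjusted p = 2.96e-10), or 6.78-fold, and its 2 probes moved together. *Irs2*, the adaptor that links the insulin receptor to PI3K (chr8:11004490-11004549), read 11.44, 11.83 and 12.30 against 10.50, 11.06 and 11.44. The lowest *p110α*hep-/- and the highest *p110α*hep+/+ mouse were both at 11.44, and the rise was 0.88 ± 0.26 (adjusted p = 0.00972).

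*Sik1*, a kinase that restrains the gluconeogenic programme, rose by 1.24 ± 0.19 (adjusted p = 4.55e-06) without overlap. *Gadd45b*, a stress-response gene, rose by 1.43 ± 0.27 (adjusted p = 8.32e-05), also without overlap. *Txnip*, an inhibitor of glucose uptake and of thioredoxin (chr3:96365340-96365399), read 13.87, 14.87 and 15.29 against 13.38, 13.70 and 14.13. Its rise of 1.06 ± 0.17 (adjusted p = 7.31e-06) overlapped because mouse 6 lay at 13.87; without mice 5 and 6 the difference was 1.28. *Pdk4*, the kinase that closes the pyruvate dehydrogenase step and spares glucose (chr6:5433441-5433500), read 10.54, 12.57 and 13.18 against 8.87, 10.17 and 10.53. Mice 5 and 6, at 10.56 and 10.54, sat just above the highest control, and the rise was 2.4 ± 0.38 (adjusted p = 6.29e-06), or 2.89 without them.

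The 2 members that fell were *Bcl6* and *Cited2*. *Bcl6*, a transcriptional repressor, read 9.22, 9.67 and 12.73 in *p110α*hep-/- and 9.74, 11.53 and 12.84 in *p110α*hep+/+ mice. The groups overlapped widely, and the fall of 1.68 ± 0.62 on the log2 scale (adjusted p = 0.0422) lost its call in 7 of the 12 fits that left out 1 mouse (-2.09 to -1.34, adjusted p 0.0126 to 0.143). *Cited2*, a transcriptional coregulator, read 8.65, 9.04 and 9.28 against 9.14, 9.63 and 10.05, a fall of 0.65 ± 0.14 (adjusted p = 0.000563). Its difference was -0.57 without mouse 4 of either genotype, under the fold threshold.

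The gluconeogenic enzymes did not move together. Of 19 genes of gluconeogenesis measured, 2 rose and none fell, with a median difference of 0.02. *G6pc*, the catalytic subunit of glucose-6-phosphatase that releases glucose from the liver, read 14.68, 15.49 and 15.83 in *p110α*hep-/- and 14.12, 14.79 and 15.40 in *p110α*hep+/+ mice. The groups overlapped and the rise of 0.71 ± 0.20 (adjusted p = 0.00857) was 0.57 without *p110α*hep+/+ mouse 6, under the fold threshold. *Pck1*, the cytosolic enzyme that commits carbon to glucose, read 17.00, 17.04 and 17.28 against 16.70, 17.08 and 17.32, a difference of 0.02 ± 0.20 (adjusted p = 0.967).

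**Figure D2:**
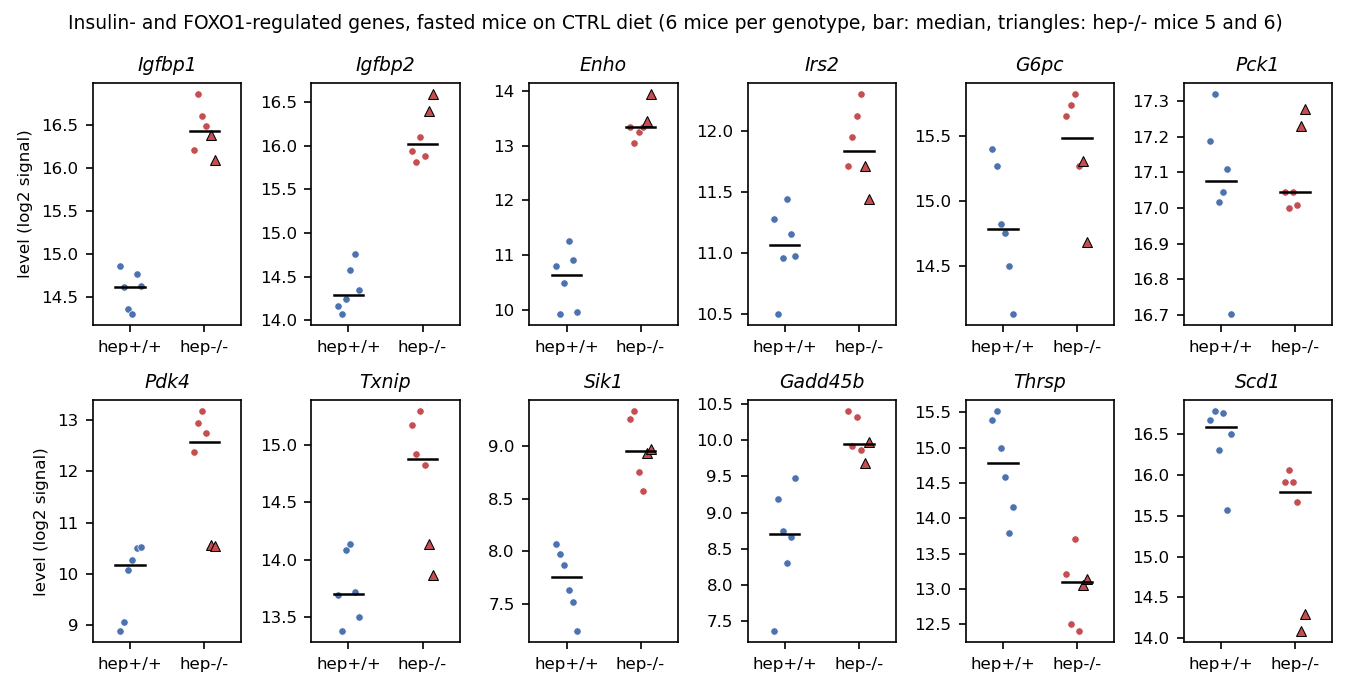
Each panel is a gene and each symbol a mouse; the vertical axis is the log2 signal, the bar is the median of 6 mice, blue is *p110α*hep+/+ and red is *p110α*hep-/-, with triangles for *p110α*hep-/- mice 5 and 6. The 2 genotypes do not overlap for *Igfbp1*, *Igfbp2*, *Enho*, *Sik1*, *Gadd45b*, *Pdk4* and *Thrsp*, while the triangles lie apart for *Pdk4*, *Txnip* and *Scd1*.

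Promoter sequence was available from RefSeq for 20 of the 26 FOXO1 target genes (GRCm38.p6), and 2 motifs were searched in the 250 bases before each start on both strands. These were the FOXO core GTAAACA, read TGTTTAC on the other strand, and the longer insulin response sequence CAAAACAA, read TTGTTTTG, both of which hold AAACA. A match to either motif was found in 4 of the 20 genes, and in 3 of the 8 called members with an entry, against 4.81% of 11677 measured genes with an entry. Of these genes 2.93% held the first motif and 1.95% the second, and of all 32851 promoters 3.17% and 2.21%. Among genes called higher, 8 of 161 with an entry held the first (4.97%) and 4 the second (2.48%). Among genes called lower, 8 of 237 held the first (3.38%) and 4 the second (1.69%). Genes can be counted as FOXO1 targets because such motifs are known in their promoters. The share in that list is therefore no evidence of its own. The 3 promoters are shown because their genes rose here and carry a match, which is in capitals. They lie at chr11:7197537-7197786 (plus strand) for *Igfbp1*, chr8:11008930-11009179 (minus strand) for *Irs2* and chr3:96557707-96557956 (plus strand) for *Txnip*, each written from 5′ to 3′ on the strand of its gene.
*Igfbp1*: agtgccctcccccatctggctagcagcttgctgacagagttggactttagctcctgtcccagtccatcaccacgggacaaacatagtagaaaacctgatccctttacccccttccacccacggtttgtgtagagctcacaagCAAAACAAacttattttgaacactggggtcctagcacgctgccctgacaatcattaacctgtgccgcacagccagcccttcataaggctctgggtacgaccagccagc
*Irs2*: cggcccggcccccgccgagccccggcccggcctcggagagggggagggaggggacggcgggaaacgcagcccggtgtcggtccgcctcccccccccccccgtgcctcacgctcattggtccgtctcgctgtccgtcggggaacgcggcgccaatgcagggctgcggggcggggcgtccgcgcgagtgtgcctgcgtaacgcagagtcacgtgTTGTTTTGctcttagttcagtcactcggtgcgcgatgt
*Txnip*: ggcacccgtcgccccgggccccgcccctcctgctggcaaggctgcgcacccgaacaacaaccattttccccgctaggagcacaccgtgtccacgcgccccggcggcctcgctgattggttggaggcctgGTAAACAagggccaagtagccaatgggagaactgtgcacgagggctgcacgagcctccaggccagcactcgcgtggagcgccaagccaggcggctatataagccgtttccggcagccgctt
Counted from the gene start, the match begins at base -108 in *Igfbp1*, -38 in *Irs2* and -121 in *Txnip*. A match describes letters in this window and is not a measured binding site. The called members *Enho* and *Sik1* had no entry.

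Upstream of FOXO1, none of 9 class I PI3K subunits was called. *Pik3r3*, a regulatory subunit, read 6.21, 6.38 and 6.64 against 6.64, 7.01 and 7.24, and its difference of -0.51 ± 0.10 (adjusted p = 0.000139) did not reach the fold threshold. Of 30 genes from the insulin receptor to AKT and FOXO, *Irs2* rose and *Trib3* fell, which is 6.67% called, against 3.23% over all genes. *Trib3*, a pseudokinase that binds AKT, read 8.63, 8.96 and 9.65 in *p110α*hep-/- and 9.41, 9.96 and 10.45 in *p110α*hep+/+ mice. Only 1 *p110α*hep-/- mouse reached the range of the controls, and the fall was 1.00 ± 0.16 on the log2 scale (adjusted p = 9.80e-06).

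Secreted liver factors changed in both directions. Of 29 hepatokines measured, 8 rose and 2 fell, with a median difference of 0.05, and *Enho*, counted above as a FOXO1 target, is 1 of the 8. *Igfbp2* (chr1:72898677-72898736), which binds insulin-like growth factors, read 15.81, 16.02 and 16.59 against 14.07, 14.29 and 14.76, with no overlap and a rise of 1.69 ± 0.18 (adjusted p = 1.45e-09). *Fgl1*, a hepatocyte-secreted fibrinogen-like protein, rose by 1.16 ± 0.18 (adjusted p = 4.83e-06). *Fst*, the activin antagonist follistatin, rose by 0.93 ± 0.16 (adjusted p = 2.38e-05), and the activin subunit genes *Inhba* and *Inhbb* rose as well. *Fgf21*, the fasting hormone, read 10.48, 10.58 and 10.80 against 9.0, 9.81 and 10.52. All 6 *p110α*hep-/- mice lay above 5 of the 6 controls, 3 of them also above the highest, and the rise was 0.80 ± 0.23 (adjusted p = 0.00829). *Lect2*, a hepatocyte-secreted chemotactic factor, fell by 0.81 ± 0.10 (adjusted p = 4.00e-08) on the log2 scale without overlap.

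Of 26 genes of glucose uptake, glycolysis and its regulators, 1 rose, which was *Pdk4*, and 1 fell, with a median of -0.04. Of 17 glycogen genes, 2 rose and 2 fell, with a median of -0.15. *Gys2*, the liver glycogen synthase, rose by 0.73 ± 0.10 (adjusted p = 8.40e-07), and *Ppp1r3g*, a subunit that targets phosphatase to glycogen, rose by 1.53 ± 0.30 (adjusted p = 0.000163). *Ppp1r3c*, another such targeting subunit, fell by 1.04 ± 0.26 on the log2 scale (adjusted p = 0.00204). None of these 3 genes overlapped between the genotypes.

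Of 25 genes of de novo lipogenesis measured, 1 rose and 4 fell, which is 20.0% called, against 3.23% over all genes, and the median difference was -0.09. *Fasn*, the fatty acid synthase, read 12.66, 12.84 and 13.43 against 12.69, 12.82 and 13.12, a difference of 0.01 ± 0.19 (adjusted p = 0.969). *Acly* and *Acaca*, which supply its substrates, differed by -0.09 ± 0.15 (adjusted p = 0.719) and 0.09 ± 0.12 (adjusted p = 0.646). *Srebf1*, the gene of the lipogenic transcription factor SREBP-1, differed by -0.47 ± 0.20 (adjusted p = 0.0809). *Thrsp*, a regulator of lipid synthesis, read 12.40, 13.10 and 13.70 against 13.78, 14.79 and 15.52, with no overlap and a fall of 1.69 ± 0.31 on the log2 scale (adjusted p = 5.39e-05). *Scd1*, the stearoyl-CoA desaturase, read 14.08, 15.79 and 16.05 against 15.57, 16.58 and 16.78. Its fall of 0.86 ± 0.24 (adjusted p = 0.00577) rested on mice 5 and 6, since without them the difference was -0.50 (adjusted p = 0.0596). *Me1*, which the study names among lipogenic genes, was called lower as well. Without *p110α*hep+/+ mouse 2 its difference was -0.58 (adjusted p = 0.0717) and its call ended. *Elovl6*, which lengthens palmitate, rose by 0.79 ± 0.18 (adjusted p = 0.00124). Of 26 genes of cholesterol synthesis, only *Hsd17b7* was called, with a rise of 0.64 ± 0.10 (adjusted p = 3.96e-06) that was 0.58 without *p110α*hep-/- mouse 4, under the fold threshold.

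PPARα targets moved in both directions. Of 36 measured, 7 rose and 4 fell, and their median was 0.24. *Ehhadh*, the peroxisomal bifunctional enzyme of fatty acid oxidation (chr16:21761914-21761973), read 14.63, 15.00 and 15.37 in *p110α*hep-/- and 12.88, 13.58 and 14.24 in *p110α*hep+/+ mice. The mice did not overlap, and the rise was 1.36 ± 0.17 (adjusted p = 6.37e-08). *Slc22a5*, the carnitine transporter, rose by 0.86 ± 0.12 (adjusted p = 5.69e-07) without overlap. *Acot1* and *Acot2*, which hydrolyse acyl-CoA, also rose. *Aqp3*, a glycerol channel, was not well above background on any *p110α*hep+/+ array and was so on 5 *p110α*hep-/- arrays, which makes it at least 1.46-fold higher in *p110α*hep-/- mice. It passed the filter on dim probes only through the group where it was high, so its place among the 7 rises is no evidence of its own, and without *p110α*hep-/- mouse 3 its difference was 0.57, under the fold threshold. *Ppara* itself differed by -0.01 ± 0.07 (adjusted p = 0.966). *Ehhadh* was the only called gene among 31 of fatty acid oxidation, whose median was -0.01. Of 9 ketone body genes, only *Bdh2* was called, with a fall of 0.90 ± 0.13 on the log2 scale (adjusted p = 1.78e-06).

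The 4 targets that fell were *Cidea*, *Cd36*, *Plin4* and *Fabp2*, of lipid droplets and fatty acid uptake and binding. *Plin4* read 11.11 and 10.80 in *p110α*hep-/- mice 5 and 6 and 11.96 to 12.75 in the other 4, with the controls at 12.46 to 13.57. The call of *Fabp2* (-0.62) ended in 5 of the 12 fits that left out 1 mouse, with -0.43 (adjusted p = 0.0724) without *p110α*hep-/- mouse 3. It read 15.96 and 15.93 in *p110α*hep-/- mice 5 and 6, above every control (15.39 to 15.78). The other 4 *p110α*hep-/- mice, at 14.42 to 14.85, were below every control. *Cidea*, a lipid droplet protein known from brown fat and fatty liver, read 5.34, 5.65 and 6.25 in *p110α*hep-/- mice, where 4 of 6 arrays were well above background, and 9.54, 11.16 and 14.00 in *p110α*hep+/+ mice, a fall of 5.84 ± 0.47 on the log2 scale (adjusted p = 8.88e-13). Every control was above every *p110α*hep-/- mouse, but the size of the fall is limited by background in *p110α*hep-/- mice and ran from -7.25 to -5.25 over the other settings. Among these mice *Cidea* met the filter on dim probes only through the group where it was high. Its place among the 4 falls, and among the largest falls, is therefore no evidence of its own. *Cd36*, the fatty acid translocase (chr5:17288600-17288659), read 7.99, 8.36 and 8.55 against 10.37, 10.41 and 11.25, a fall of 2.38 ± 0.24 (adjusted p = 2.99e-10). *Pparg*, counted here among nuclear receptors and known for fat storage (chr6:115440213-115440272), read 8.29, 8.71 and 8.85 against 10.08, 10.45 and 10.87, a fall of 1.80 ± 0.18 (adjusted p = 2.65e-10). *Cidec*, a droplet protein related to *Cidea*, read 11.22, 12.20 and 13.85 against 12.07, 12.53 and 13.49, a difference of -0.36 ± 0.41 (adjusted p = 0.576). Its 2 highest *p110α*hep-/- values were mice 5 and 6, and without them the difference was -0.76 (adjusted p = 0.163).

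Among 35 genes of lipoproteins and triglyceride handling, 2 rose and 3 fell, with a median of 0.03. *Apom*, the apolipoprotein that carries sphingosine 1-phosphate, read 15.61, 15.73 and 15.85 against 14.75, 14.93 and 15.19, a rise of 0.78 ± 0.08 (adjusted p = 2.77e-09). *Lpl*, the lipase that clears triglyceride from blood, rose by 1.05 ± 0.18 (adjusted p = 2.65e-05) on its brightest probe; the median over its 6 probes was 0.36 and was not called, and 3 of the 6 were well above background on all 12 arrays. *Apoa4* fell by 1.73 ± 0.43 on the log2 scale (adjusted p = 0.0022), with mice 5 and 6 above every control and the other 4 below every control; without mice 5 and 6 the difference was -2.37 (adjusted p = 2.57e-06).

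**Figure D3:**
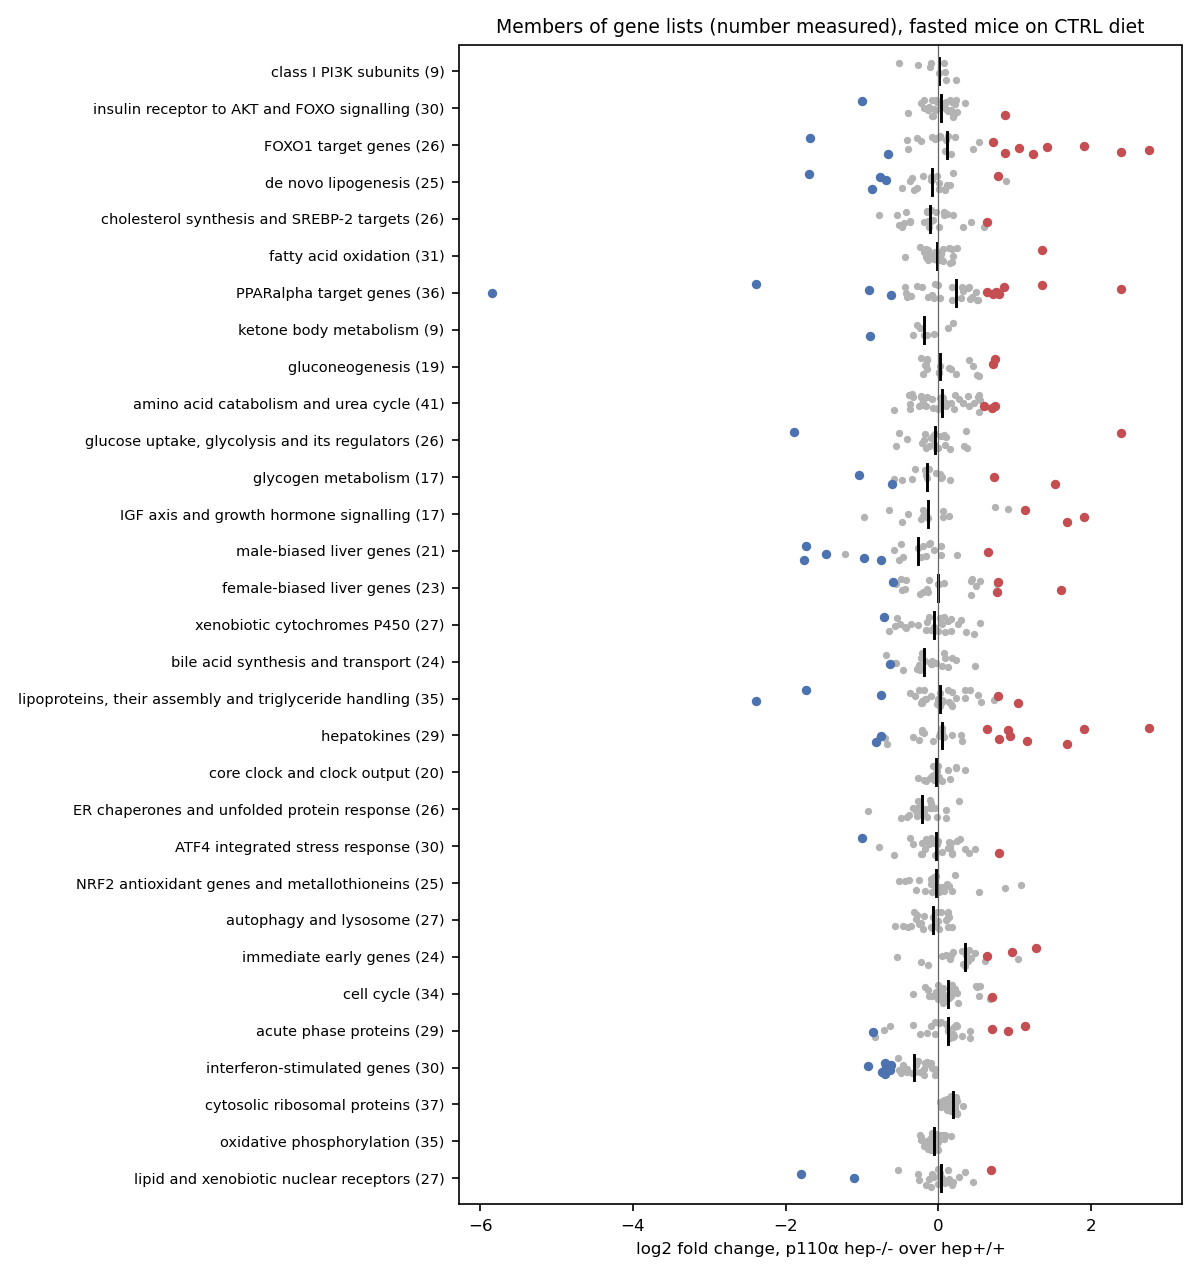
Each row is a gene list with the number of members measured, each point a member, and the horizontal axis its log2 difference between genotypes, positive where *p110α*hep-/- livers were higher; red and blue points were called higher and lower, grey points were not called, and black bars are medians. FOXO1 targets and hepatokines hold 8 called rises each, with *Enho* counted in both. All 30 interferon-stimulated genes lie below 0, and the medians run from -0.32 to 0.35.

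The 12 largest rises and the 12 largest falls among called genes without overlap held genes of other kinds too. *Tff3*, a secreted trefoil peptide (chr17:31262279-31262338), read 10.51, 12.01 and 12.40 against 7.88, 8.56 and 10.39, a rise of 2.92 ± 0.55 (adjusted p = 8.45e-05) and the largest of these rises. *Fabp5*, a fatty acid binding protein (chr3:10016185-10016244), read 12.09, 12.37 and 13.50 against 9.99, 10.57 and 11.52, a rise of 1.85 ± 0.28 (adjusted p = 2.37e-06). *Ntf3*, the neurotrophin-3 gene, rose by 1.77 ± 0.18 (adjusted p = 4.11e-10), and *Slc13a5*, the citrate importer, by 1.67 ± 0.21 (adjusted p = 4.59e-08). *Tango6* rose by 1.91 on its brightest probe, while its other probe, well above background on all 12 arrays, gave -0.15 (adjusted p = 0.117).

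Among the falls, *Cfd*, the complement factor D known as adipsin, read 5.54, 5.96 and 6.16 in *p110α*hep-/- mice, with 5 of 6 arrays well above background, and 9.65, 11.78 and 12.29 in *p110α*hep+/+ mice. The fall was 5.46 ± 0.62 on the log2 scale (adjusted p = 7.73e-09), and both of its probes fell, with the size limited by background in *p110α*hep-/- mice. *Wfdc2*, a secreted protease inhibitor-like protein (chr2:164393935-164393994), read 9.11, 9.37 and 9.67 against 11.68, 12.32 and 12.52, a fall of 2.78 ± 0.21 (adjusted p = 3.10e-13). *Gpc1*, a cell-surface heparan sulphate proteoglycan (chr1:94756711-94756770), fell by 2.74 ± 0.22 (adjusted p = 9.57e-13). *Aatk*, a membrane kinase (chr11:119868694-119868753), fell by 2.63 ± 0.14 (adjusted p = 5.18e-19). *Anxa8*, an annexin, fell by 2.70 ± 0.25 (adjusted p = 8.09e-11). *Aqp8*, a hepatocyte water channel, fell by 2.51 ± 0.23 (adjusted p = 3.37e-11). *Dct* fell by 4.85 ± 0.26 (adjusted p = 7.49e-19) on its brightest probe (chr14:118412029-118412088), but its other probe (chr14:118442262-118442321), well above background on all 12 arrays, gave 0.12 (adjusted p = 0.510), so the value belongs to the first probe and not to the gene as a whole. The remaining names of the group were *BC049987*, *2610305D13Rik* and *Snhg11* among the falls and *B930025P03Rik* and *E130012A19Rik* among the rises, of no role given here.

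**Figure D4:**
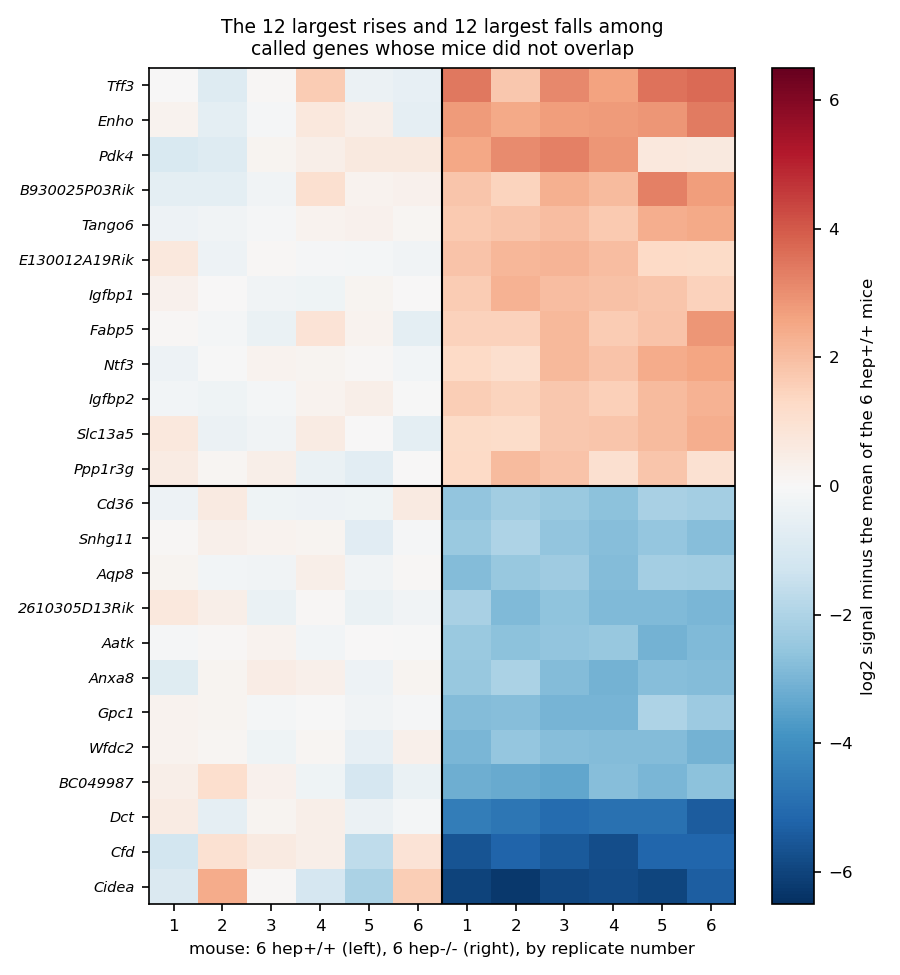
Columns are the 12 mice, *p110α*hep+/+ on the left and *p110α*hep-/- on the right by replicate number, rows are the 12 largest rises and the 12 largest falls, and the colour is the log2 signal minus the mean of the *p110α*hep+/+ mice. *Cidea*, *Cfd* and *Dct* are the darkest rows, and *Pdk4* is pale in *p110α*hep-/- mice 5 and 6.

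Of 21 male-biased liver genes measured, 1 rose and 5 fell, with a median of -0.26, and 17 of the 21 differences were below 0. *Cyp4a12a* and *Cyp4a12b*, male-specific fatty acid hydroxylases whose near-identical sequences the probes may share, fell by 1.73 ± 0.34 (adjusted p = 0.000179) and 1.76 ± 0.35 (adjusted p = 0.000176) on the log2 scale without overlap. *Elovl3*, a fatty acid elongase, read 11.47, 11.89 and 13.88 against 13.54, 13.59 and 14.05, a fall of 1.47 ± 0.37 (adjusted p = 0.00271) from which mouse 3 stood out at 13.88. *Esr1*, the oestrogen receptor alpha, rose by 0.69 ± 0.16 (adjusted p = 0.000808) with overlap. Of 23 female-biased genes, 3 rose and 1 fell, with a median of 0.00. *Cux2*, a repressor of male-biased genes, read 5.88, 6.68 and 8.46 against 5.17, 5.44 and 6.22. It was well above background on 6 *p110α*hep-/- arrays and on 1 of 6 *p110α*hep+/+ arrays, so no fold is given, and mice 5 and 6, at 5.88 and 5.90, lay inside the control range. *Cyp3a44*, another of the 3 rises, was likewise above background on 6 and on 1 of 6 arrays, so for 2 of the 3 rises most controls were not well above background. Among these 12 mice both genes met the filter on dim probes only through the group where they were high. Their place among the 3 rises is therefore no evidence of its own.

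All 30 differences of interferon-stimulated genes were below 0, of which 15 passed the adjusted p alone and 7 genes fell, and the median was -0.32. *Oasl1*, an antiviral protein, read 9.91, 10.23 and 10.39 against 10.79, 11.14 and 11.51, a fall of 0.92 ± 0.16 on the log2 scale (adjusted p = 2.19e-05). *Irf7*, the transcription factor that amplifies interferon production, fell by 0.70 ± 0.15 (adjusted p = 0.000469), *Isg15*, a ubiquitin-like modifier, by 0.70 ± 0.16 (adjusted p = 0.000786), and *Ifit3*, which restrains viral RNA, by 0.74 ± 0.18 (adjusted p = 0.00163). Of 29 acute phase genes, 3 rose and 1 fell, with a median of 0.13. *Socs3*, the feedback inhibitor of cytokine signalling, read 10.69, 11.07 and 11.61 against 9.14, 9.93 and 10.52, a rise of 1.14 ± 0.25 (adjusted p = 0.000533). *Il1rn*, the interleukin 1 receptor antagonist, rose by 0.92 ± 0.16 (adjusted p = 3.07e-05), with 0.39 (adjusted p = 0.0789) on its second probe, which was well above background on 3 of 6 *p110α*hep+/+ arrays.

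Of 24 immediate early genes, 3 rose and none fell, and the median was 0.35. *Myc*, the growth transcription factor, read 7.88, 8.81 and 9.52 against 7.17, 7.47 and 8.57, a rise of 1.28 ± 0.34 (adjusted p = 0.0041), and *Btg2*, an antiproliferative gene, rose by 0.96 ± 0.17 (adjusted p = 4.45e-05). Cytosolic ribosomal protein genes shifted by little but together. All 37 differences were above 0, between 0.02 and 0.32, 31 of them passed the adjusted p alone, none reached the fold threshold, and the median was 0.19. *Rps28* read 15.79, 15.88 and 15.93 against 15.46, 15.55 and 15.62. No gene was called among 20 of the clock, 26 of the ER chaperones and unfolded protein response, 25 of the NRF2 response, 27 of autophagy and the lysosome, and 35 of oxidative phosphorylation, with medians of -0.03, -0.21, -0.04, -0.07 and -0.05. *Arntl*, *Cry1*, *Per2* and *Nr1d1*, parts of the clock, differed by -0.06, -0.06, -0.07 and 0.23 with adjusted p of 0.404 or more. Of 41 genes of amino acid catabolism and the urea cycle, 3 rose and none fell, among them *Slc7a2*, a carrier of cationic amino acids, by 0.70 ± 0.13 (adjusted p = 4.59e-05). *Cyp2f2*, of 27 xenobiotic cytochromes P450, fell by 0.72 ± 0.12 on the log2 scale (adjusted p = 7.40e-06), and *Abcb11*, the bile salt export pump and 1 of 24 genes of bile acid synthesis and transport, by 0.64 ± 0.13 (adjusted p = 0.000399). Without *p110α*hep-/- mouse 5 the difference of *Abcb11* was -0.58, and without mice 5 and 6 it was -0.57, both under the fold threshold.

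Markers of cell types were summed on the linear scale in each mouse. The sum over 13 hepatocyte markers was 3077829 to 3211602 in *p110α*hep-/- and 3078317 to 3160158 in *p110α*hep+/+ mice, with all 13 well above background on all 12 arrays. Sums over 13 stellate cell markers (30597 to 40397 against 28690 to 41979), 16 macrophage markers (47832 to 61363 against 34322 to 50131) and 7 erythroid markers (197964 to 365360 against 185977 to 459881) overlapped. Those over 11 endothelial markers did not (24414 to 27355 against 18462 to 24243); none of the 11 was called and 6 were higher by the adjusted p alone. All 8 cholangiocyte markers had differences below 0, 6 of them passed the adjusted p alone, and 3 were called. *Epcam*, *Krt7* and *Tspan8* met the filter on dim probes in neither genotype here, and the 3 calls were among the other 5. *Pkhd1*, 1 of the 3, lost its call in several fits that left out 1 mouse, with -0.52 without *p110α*hep-/- mouse 2. The sum over all 8 was 1566 to 3511 against 2769 to 4331. *Spp1*, osteopontin, carried most of that difference with 8.19, 8.59 and 8.87 against 10.02, 10.37 and 10.92, a fall of 1.87 ± 0.17 (adjusted p = 5.80e-11). The part of these cell types in the results was not tested, and in whole liver fewer cells of a type and less RNA per cell cannot be told apart.

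The adipose and mesothelial sum was 380.2 to 652 against 1132 to 5566, and without *Cfd* it was 323 to 584 against 329 to 1000.04, which overlap. *Cd4* rose by 0.67 ± 0.15 (adjusted p = 0.000719) on its brightest probe, its other probe gave -0.08 (adjusted p = 0.486), and the sum of the other 13 lymphocyte and neutrophil markers was 2534 to 3345 against 2431 to 3312. *Col3a1* and *Col1a1*, fibrillar collagens, fell by 0.88 ± 0.20 (adjusted p = 0.000823) and 1.00 ± 0.25 (adjusted p = 0.00255), the first on its brightest probe; its other 2 were well above background on 0 and 2 of 6 *p110α*hep-/- and on 1 and 4 of 6 *p110α*hep+/+ arrays. *Alas2*, of haem synthesis in red cells, fell by 1.06 ± 0.15 (adjusted p = 5.22e-07) while the summed erythroid signal overlapped. Among 6 pancreas and gut markers, *Cela2a* rose by 1.00 ± 0.20 (adjusted p = 0.000237) and *Cela1* fell by 0.89 ± 0.15 (adjusted p = 2.37e-05) on its brightest probe, its other probe being well above background on none of the 12 arrays. The summed signal of the 5 markers other than *Fabp2* was 7255 to 9473 against 11130 to 16463, which did not overlap. *Cela1*, with mean log2 signals of 12.53 against 13.42, carried most of that difference. The part of these markers in the results was not tested either.

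Part of the response was shared with other conditions. In fed mice on CTRL, 765 genes were called between the genotypes (3.73%), and in fasted mice on HFD, 1343 (6.56%). These comparisons use other mice but the same fit. Of the 662 genes, 309 were also called in fed mice, which is 46.7% of the 662 and 40.4% of the 765, and 303 of them had the same direction. With fasted mice on HFD 410 were shared, 61.9% of the 662 and 30.5% of the 1343, and 409 had the same direction. In all 3 comparisons 271 genes were called, of which 267 kept their direction, 76 higher and 191 lower. *Cidea* differed by -6.69 in fed mice and by -8.26 in fasted mice on HFD, where 1 and 5 of 6 *p110α*hep-/- arrays were well above background, so its sizes are not compared. *Enho* rose by 3.07 and 1.96. *Igfbp1* rose by 3.28 and 1.65, and *Igfbp2* by 2.22 and 3.07. The log2 differences were -2.15 and -1.47 for *Pparg* and -1.76 and -2.63 for *Spp1*. A further 214 of the 662 were called in neither other comparison, which does not show that they differ from them.

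The difference itself was tested with interaction terms. The effect of genotype differed between fasted and fed mice on CTRL for 271 genes (1.32%), more positive in fasted mice for 130 and more negative for 141. Of these 271 genes, 104 were called in fasted mice. *Fabp5* moved in opposite directions, from -2.14 ± 0.29 in fed mice to 1.85 in fasted mice, an interaction of 3.99 ± 0.40 (adjusted p = 5.56e-09). Fed *p110α*hep+/+ mice read 12.08, 13.00 and 13.67 and fed *p110α*hep-/- mice 9.71, 10.83 and 12.08, so the fasted and fed orders of the genotypes were reversed. The probes NAP111439-1 and NAP114472-1, which carry no gene symbol, followed the same pattern.

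Named genes with a called interaction went both ways. The genotype difference was more positive in fasted than in fed mice for some, with an interaction of 2.8 ± 0.55 for *Pdk4* (adjusted p = 0.00226), 1.33 ± 0.25 for *Ehhadh* (adjusted p = 0.00115), 1.52 ± 0.33 for *Fgf21* (adjusted p = 0.00539), 0.72 ± 0.17 for *Slc22a5* (adjusted p = 0.011) and 0.95 ± 0.25 for *Txnip* (adjusted p = 0.0197). In fed mice the genotype differences of these genes were -0.41, 0.03, -0.72, 0.13 and 0.11. Of the 36 PPARα targets, 10 had a called interaction, all more positive in fasted mice, against 1.32% of all genes in either direction, and their median was -0.27 in fed mice. Of 25 lipogenesis genes, 8 had a called interaction, all more positive in fasted mice, against the same 1.32%, and the median was -0.71 in fed and -0.09 in fasted mice. *Pnpla3* and *Pnpla5* are 2 of these 8, and the probes used for them were at or near background in both fasted genotypes. The other probe of *Pnpla5* was well above background on all 12 fasted arrays and gave a fasted difference of -0.10 (adjusted p = 0.801). Without them, left out after the data were seen, 6 of 23 had a called interaction and the medians were -0.70 and -0.09. *Pnpla3*, a lipid droplet protein, had fallen by 2.76 in fed mice; after fasting it was well above background on none of the *p110α*hep-/- and 1 of the *p110α*hep+/+ arrays, so no fold is given there. *Vnn1*, a pantetheinase, differed by -2.17 in fed and by -0.42 in fasted mice (interaction 1.76 ± 0.31, adjusted p = 0.000685). *Bdh2* went the other way (interaction -0.72 ± 0.19, adjusted p = 0.0247), and so did *Pck1*, with 1.44 in fed and 0.02 in fasted mice (interaction -1.42 ± 0.29, adjusted p = 0.00327): fed *p110α*hep-/- mice were already at 15.89, 16.42 and 16.77 against 13.94, 14.89 and 16.49 in fed controls.

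**Figure D5:**
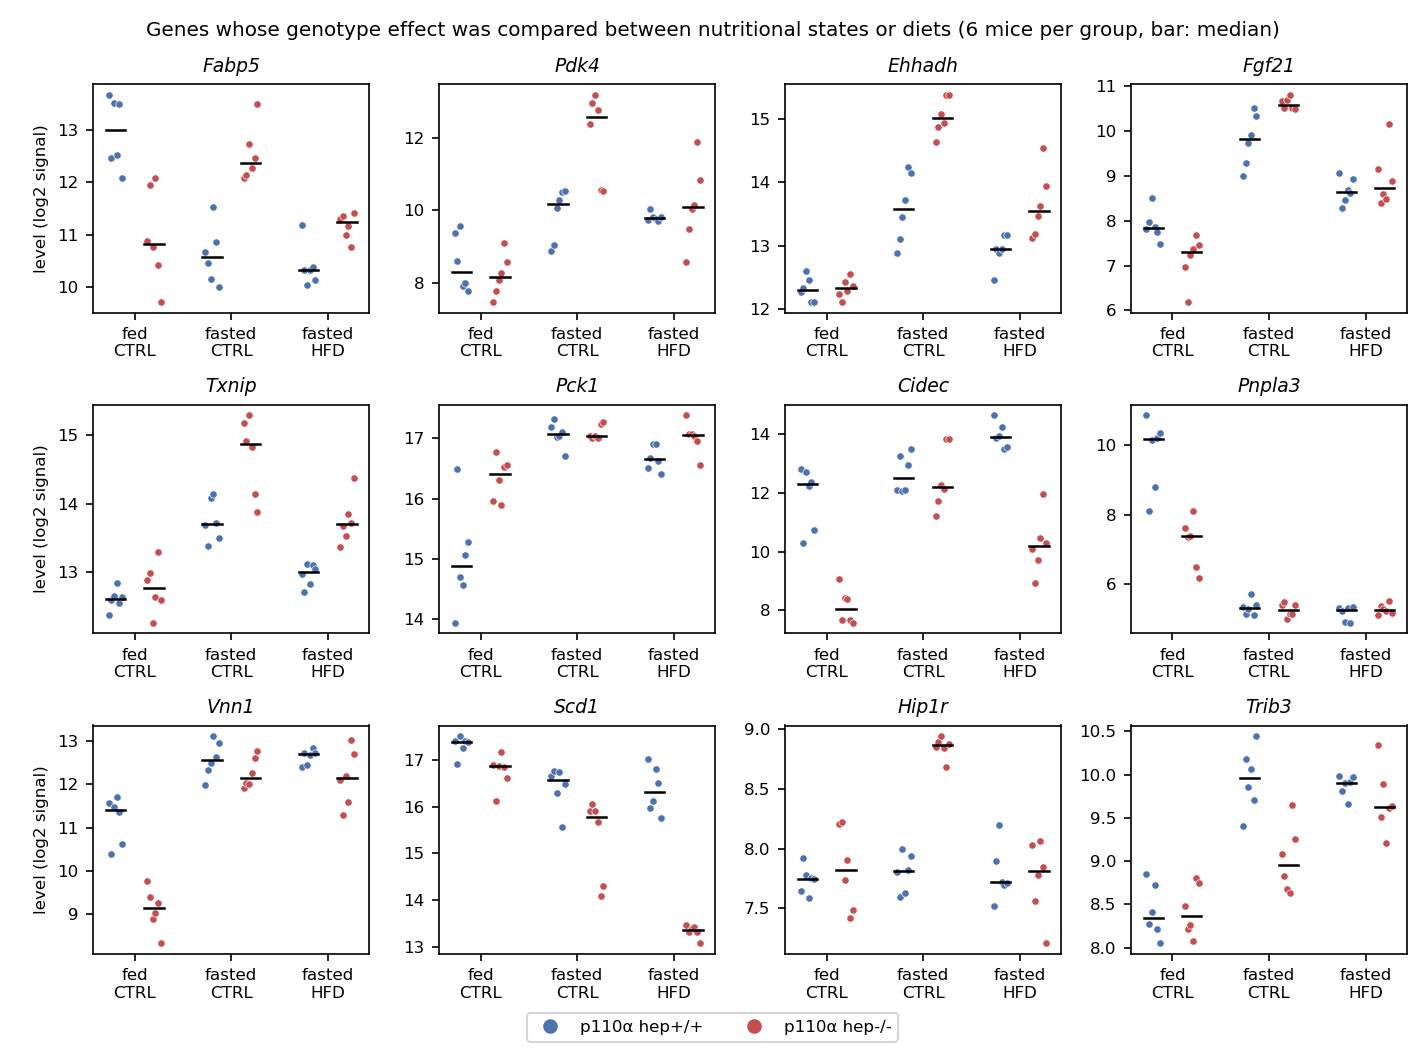
Each panel is a gene, the vertical axis is the log2 signal, each point is a mouse and each bar the median of 6; blue is *p110α*hep+/+ and red is *p110α*hep-/-, for fed CTRL, fasted CTRL and fasted HFD mice. The red and blue points change order between fed and fasted CTRL mice for *Fabp5*, and *Hip1r* is apart only in fasted CTRL mice.

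The effect of genotype in fasted mice differed between CTRL and HFD for 386 genes (1.88%), more positive on CTRL for 270 and more negative for 116, and 82 of these genes were called on CTRL. *Cidec* differed by -0.36 on CTRL and by -3.85 on HFD (interaction 3.49 ± 0.59, adjusted p = 0.000448), and *Scd1* by -0.86 and -3.03 (interaction 2.17 ± 0.35, adjusted p = 0.000286). *Dbi*, the acyl-CoA binding protein, differed by 0.07 and -1.08 (interaction 1.14 ± 0.13, adjusted p = 5.81e-07). *Hip1r*, an endocytic adaptor (chr5:124452424-124452483), was called on CTRL alone: fasted CTRL *p110α*hep-/- mice read 8.68, 8.86 and 8.94 against 7.60, 7.81 and 8.0, a rise of 1.05 ± 0.11 (adjusted p = 7.74e-10). Its difference was 0.07 in fed CTRL and -0.08 in fasted HFD mice, and both interactions passed (0.98 ± 0.16, adjusted p = 0.000253, and 1.12 ± 0.16, adjusted p = 3.53e-05). *Trib3* likewise fell in fasted CTRL mice and differed by -0.01 and -0.15 in the others (interactions -1.0 ± 0.24, adjusted p = 0.0107, and -0.85 ± 0.24, adjusted p = 0.0314). *Pdk4*, *Hsd17b7*, *Il1rn* and *Elovl6* also rose in fasted CTRL mice with both interactions called. *Igfbp2* rose less on CTRL than on HFD (interaction -1.38 ± 0.26, adjusted p = 0.00142). Of 26 cholesterol synthesis genes, 13 had a called interaction with diet, all more positive on CTRL, against 1.88% of all genes in either direction, with medians of -0.11 on CTRL and -0.76 on HFD. For the 30 interferon-stimulated genes the medians were -0.32 on CTRL and -0.85 on HFD, and 6 had a called interaction, against the same 1.88%.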

How the data were processed

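Gene expression was measured in 48 livers, 8 groups of 6 male mice, on single-colour Agilent arrays whose files, per the file headers, were read by Feature Extraction 10.10.1.1 with probe coordinates in mm9. The authors deposited spot intensity per array, with flags for outliers and for signal well above background, and a table of normalized log2 values for 32437 probes, used here as an alternative. No spot intensity is a read count, so no depth applies.

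From the median intensity, log2 was taken, outlier spots were set missing and spots of a probe were averaged. Probes well above background on at least 5 of 6 arrays of a group were kept (30793 of 56605), the washing batch was removed while keeping group means, and arrays were quantile normalized. A linear model over all 48 arrays with array weights was fitted in limma 3.58.1 (R 4.3.3), with Benjamini-Hochberg adjustment over all kept probes. A gene (20486) is given by its brightest probe and called where its fold passed 1.5 and its adjusted p did not exceed 0.05; ± is the SE of the fit unless SD is stated. On simulated data, all 100 genes given a log2 change of 1 and 83 of 100 given 0.7 were called among 20459. The simulated noise was independent between genes and mice, with 1 spread per gene for all groups. It held no mice that stood apart together, as mice 5 and 6 did, so these shares need not hold for the data.

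Named here were genes that the study's text names, for these mice or for others. The 12 largest rises and the 12 largest falls without overlap were added, with up to 6 called members of each list. So were the 6 interactions of lowest adjusted p. The comparison, the 40 lists (845 of 888 symbols measured) and the tests were chosen with earlier results of these data known. *Acot1*, *Acot2*, *Inhba*, *Inhbb*, *Plin4*, *Fabp4*, *Bcl6*, *Gdf15* and *Gadd45g* are named outside this rule, after their values were seen. Alternatives changed the signal, background, normalization, filter, batch, slide, weights, arrays fitted, probe and threshold, and left out each mouse. Mice were separate animals, and the labels do not pair them. Some genes that the rule names are not reported here.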

Additional observations from a re-analysis of the deposited data

Results flagged for a closer look

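Among 141 named genes, 1 mouse of a group of 6 lay far from the other 5 by Dixon's test in 11 of 282 groups tested, which is 3.9%, where chance gives about 1 in 20. In *p110α*hep-/- mice the log2 signals concerned were *Me1* in mouse 6 at 11.51 (others 10.82 to 11.03), *Mlxipl* in mouse 6 at 14.07 (others 13.86 to 13.92), *Elovl3* in mouse 3 at 13.88 (others 11.47 to 12.17), *Cyp3a44* in mouse 6 at 6.60 (others 5.93 to 6.08), *Gpx1* in mouse 1 at 17.19 (others 17.33 to 17.40) and *Irf7* in mouse 3 at 12.45 (others 12.86 to 13.03). In *p110α*hep+/+ mice the log2 signals concerned were *Ppara* in mouse 1 at 14.68 (others 14.94 to 15.09), *Hsd17b7* in mouse 6 at 11.00 (others 11.21 to 11.30), *Cyp2f2* in mouse 1 at 17.01 (others 16.53 to 16.69), *Btg2* in mouse 2 at 9.16 (others 8.49 to 8.73) and *Alas2* in mouse 1 at 13.16 (others 12.44 to 12.62). 

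The effect of genotype differed between conditions by an interaction test for 28 of the named genes and probes, as the log2 effect in fasted minus fed mice on CTRL. It was more positive for *Cidec* 3.51, *Acly* 0.86, *Elovl6* 1.08, *Vnn1* 1.76, *Fgf21* 1.52, *Pdk4* 2.8, *Fabp5* 3.99, *Ntf3* 1.34, *Slc13a5* 1.22, *Txnip* 0.95, *Hsd17b7* 0.92, *Ehhadh* 1.33, *Slc22a5* 0.72, *Btg2* 0.91, *Il1rn* 1.12, chr2:119697845-119719245_F 1.96, NAP111439-1 4.0, NAP114472-1 4.0, *Ddhd2* 1.04 and *Hip1r* 0.98. It was more negative for *Pck1* -1.42, *Trib3* -1.0, *Bdh2* -0.72, *Cyp2f2* -0.62, *Abcb11* -0.71 and *Lect2* -0.66. For *Pnpla3* (2.67) and *Pnpla5* (3.08) the interaction sets a fall in fed mice against fasted signals well above background on 0 and 1, and on 0 and 2, of 6 *p110α*hep-/- and *p110α*hep+/+ arrays, on the probes used, so its size is no measured difference. The other probe of *Pnpla5*, well above background on all 12 fasted arrays, gave a fasted genotype difference of -0.10.

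The effect of genotype differed between conditions by an interaction test for 27 of the named genes and probes, as the log2 effect in CTRL minus HFD in fasted mice. It was more positive for *Scd1* 2.17, *Cidec* 3.49, *Me1* 1.2, *Elovl6* 1.18, *Pdk4* 2.13, *Aqp8* 1.5, *Hsd17b7* 0.94, *Il1rn* 1.01, *Oasl1* 0.93, *Col3a1* 1.08, *Col1a1* 1.32, *Ddhd2* 0.73, *Dbi* 1.14, *Hip1r* 1.12 and *Kbtbd11* 1.99. It was more negative for *Igfbp2* -1.38, *Mlxipl* -0.74, *Gpc1* -1.29, *Tango6* -1.19, *Trib3* -0.85, *Ugt2b1* -0.84, *Cela2a* -1.31, *Ccdc163* -0.61, *Mug2* -0.82 and chr10:116814196-116920696_R -0.71. For *Cyp3a44* (0.59) the signal was well above background on 1 of 6 *p110α*hep+/+ arrays on CTRL and on 0 and 1 arrays on HFD, so its size is no measured difference. For *Cidea* (2.42) the *p110α*hep-/- signal was well above background on 4 of 6 arrays on CTRL and 5 of 6 on HFD, which limits both falls, so the same holds.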

How the results depend on the processing

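With 662 genes called, the count was 1151 from the processed signal scaled to its 75th percentile (446 higher, 705 lower), 5091 by the adjusted p alone (2563 higher, 2528 lower, 50.3% higher against 41.1%), and 204 at a fold over 2 (75 higher, 129 lower). Within washing batches 1 and 2 it was 572 and 495, the second with 180 higher. Leaving out 1 mouse at a time gave 608 to 763 (243 to 321 higher, 352 to 442 lower), and leaving out *p110α*hep-/- mice 5 and 6 together, chosen after seeing the data, gave 772. For the interaction with nutritional state (271) the count was 161 with no filter on dim probes, 164 without array weights, 813 by the adjusted p alone, 76 at a fold over 2 and 218 to 293 without 1 mouse. For the interaction with diet (386) it was 247 with no filter, 1042, 113 and 309 to 494. *Dct* turned from -4.85 to 0.12 when only probes above background on all arrays were kept, because its brightest probe was then left out. Replicate numbers did not pair the mice (correlations of deviations from -0.11 to 0.09); with a replicate block 656 genes were called, 641 of them among the 662. Of 100 named genes called, 18 lost the call in at least 1 of the fits that left out 1 mouse, 57 within at least 1 washing batch, 6 without mice 5 and 6, and 27 under at least 1 other setting; none changed sign except *Dct*, and the causes were not tested. Signals near background and the number of 6 mice a group limit the precision.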
